A study of Mus musculus with 6 samples.

Results

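Ikaros-family factors are zinc finger proteins of blood cells. Their 5 genes, and 5 genes of the corepressors through which they act, were measured in mouse T helper 2 (Th2) cells with and without Eos. The members were chosen by name, as the rows of the deposited table with the symbols Ikzf1, Ikzf2, Ikzf3, Ikzf4, Ikzf5, Ctbp1, Ctbp2, Sin3a, Chd4 and Hdac2, and all 10 were found among its 14868 genes. Naïve CD4+ T cells on a C57BL/6J background were either wild-type (WT) or Ikzf4-/-, a genotype in the gene of Eos; the labels do not describe the allele or say from how many mice the cells came. All cultures of both genotypes grew for 72 h on plate-bound antibodies to CD3 (5 µg/mL) and CD28 (2 µg/mL), in medium with 10 ng/mL IL-4 and 10 µg/mL anti-Ifng. Total RNA of 3 WT and 3 Ikzf4-/- cultures was sequenced. Nothing in the labels says that the 3 libraries of a genotype came from separate mice, so p-values measure the spread between these libraries, which may be technical.

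The amino-terminal zinc fingers of Ikaros and its close relatives bind DNA at a GGGAA core. The carboxy-terminal fingers join a factor to itself or to another member of the family. Factors of the family share partners, among them the nucleosome remodelling and deacetylase complex (NuRD), the SIN3 deacetylase complex and the C-terminal binding proteins (CtBP), and they can repress or activate genes. Ikaros (Ikzf1) is present throughout the lymphoid lineage, Helios (Ikzf2) and Eos (Ikzf4) are known from regulatory T cells, Aiolos (Ikzf3) from B cells and several T helper subsets, and Pegasus (Ikzf5) is the most distant relative.

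Because Ikaros and its close relatives read a GGGAA core, promoters of the family itself are shown, to let a reader see whether the core lies there. Sequences were taken from RefSeq (GRCm38.p6), from 250 bases before to 50 after a transcription start, and 7 of the 10 members matched, with 11 promoters. The core was searched as GGGAA and as its reverse complement TTCCC, which cover both strands of the same motif. It was found in 7 of the 11 promoters and in 62.7% of all 32851 promoters of that length. Ikzf1 is shown with both of its promoters in this set because it carried most of the family's RNA. Ikzf5 is shown because its mean in WT cells was next, close to that of Ikzf4. The annotated Ikzf1 gene begins at 11685003, upstream of both windows, so other starts may exist. Capitals mark the core.
Ikzf1 upstream start, chr11:11685675-11685974, plus strand: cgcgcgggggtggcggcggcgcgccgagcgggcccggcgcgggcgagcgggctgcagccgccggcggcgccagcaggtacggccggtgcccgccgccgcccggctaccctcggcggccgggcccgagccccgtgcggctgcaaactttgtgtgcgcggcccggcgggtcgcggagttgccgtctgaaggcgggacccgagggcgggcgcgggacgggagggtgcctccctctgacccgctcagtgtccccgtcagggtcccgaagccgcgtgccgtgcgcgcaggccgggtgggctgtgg
Ikzf1 downstream start, chr11:11689927-11690226, plus strand: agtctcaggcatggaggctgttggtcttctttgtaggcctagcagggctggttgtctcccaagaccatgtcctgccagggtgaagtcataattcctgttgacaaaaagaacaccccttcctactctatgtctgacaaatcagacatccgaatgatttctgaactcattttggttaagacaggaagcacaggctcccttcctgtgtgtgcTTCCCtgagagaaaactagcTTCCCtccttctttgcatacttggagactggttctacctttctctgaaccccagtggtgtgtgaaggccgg
Ikzf5, chr7:131410429-131410728, minus strand: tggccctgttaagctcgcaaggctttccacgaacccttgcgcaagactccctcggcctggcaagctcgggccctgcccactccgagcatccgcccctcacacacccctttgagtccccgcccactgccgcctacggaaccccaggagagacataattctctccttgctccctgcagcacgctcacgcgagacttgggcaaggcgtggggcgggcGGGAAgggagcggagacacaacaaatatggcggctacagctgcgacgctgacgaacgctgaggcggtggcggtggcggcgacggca
The upstream Ikzf1 promoter held 0 cores, the downstream one 2, both as TTCCC, and the Ikzf5 promoter 1, as GGGAA. A match is a description of the letters and not a measured binding site. Ikzf2, Ikzf3 and Ikzf4 had no entry.

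Values are normalized read counts, that is, reads per gene divided by a size factor of each library, and the depth implied by the values ran from 34701390 to 40604346 reads per library. All 6 T cell markers and both CD4 T cell markers were measured and 0 of them called, with Cd4 at 25135 to 28266 in the 6 libraries. For B cells 3 of 6 markers were measured, summing to 61.7 to 92.5 in WT and 75.4 to 99.5 in Ikzf4-/- libraries, for myeloid cells 1 of 6 (8.38 to 49.4 over all libraries), for NK cells 1 of 4 (149 to 299), and for CD8 T cells 2 of 2 (232 to 423); 0 of these were called. Of 6 Th2 markers, 3 were called lower in Ikzf4-/- cells (Il4, Il13 and Il4ra) and 0 higher, beside 1.77% of all tested genes called. An unadjusted p under 0.05 was found for 5, beside 18.1% of all tested genes, and the median log2 fold change was -0.81. Gata3 (-0.24) and Il5 (-1.24) were not called, at limma adjusted p of 0.146 and 0.0529. In the authors' deposited table their adjusted p was 0.0386 and 0.00209, and that of Il4ra 0.0600. Il13 and Il4ra were near the threshold (limma adjusted p = 0.0450 and 0.0476). The Th2 cytokine gene Il4 was at 427 to 491 in WT and 212 to 271 in Ikzf4-/- libraries (log2 fold change -0.87, limma adjusted p = 0.0144).

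Ikzf4, the gene of Eos (ENSMUSG00000002578, chromosome 10, 128630843 to 128645991, minus strand, GRCm38), was measured first as a check of the genotypes. Its normalized read count was 756, 499.6 and 483 in WT replicates 1 to 3. In Ikzf4-/- replicates 1 to 3 it was 25.2, 10.5 and 38.2. Every mutant library was far below every WT library, but reads assigned to the gene did not reach 0 in any of them, and which exons they come from cannot be read from gene totals. The fitted WT level was 25.0 times the Ikzf4-/- level on the log2(value + 1) scale, with a 95% confidence interval of 14.1 to 44.3 times (limma adjusted p = 0.000389). Among WT libraries Ikzf4 varied by a coefficient of variation of 26.4%, against 4.12% from counting reads alone, and replicate 1 was the high one. Without that library the log2 fold change was -4.44.

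**Figure D1:**
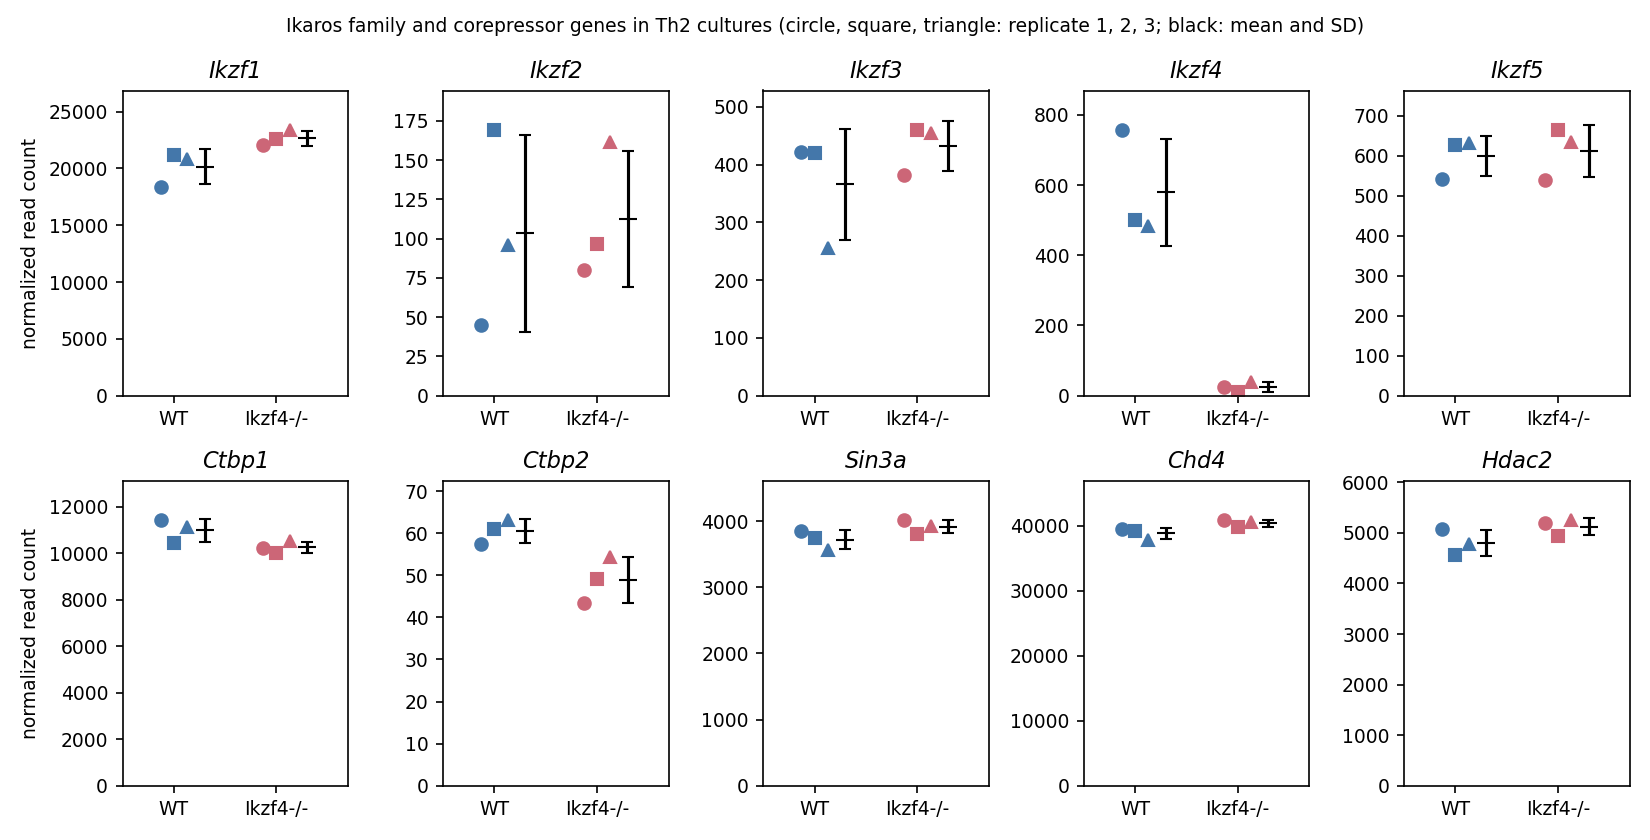
Normalized read count (y axes from 0, a separate scale for each gene) of the 10 genes in the 3 WT (blue) and 3 Ikzf4-/- (red) libraries, with the mean and SD in black. Ikzf4 falls from between 483 and 756 to between 10.5 and 38.2, and none of the other 9 genes was called.

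How much RNA of each factor the cells held was compared per length. The normalized count per kb of merged exon, scaled to the same sum over all genes in each library, is called the level per length. Ikzf1 RNA was by far the most abundant of the family, and amounts of protein were not measured. In WT libraries the level per length was 299 ± 26.4 (SD, n = 3) for Ikzf1, 8.99 ± 0.822 for Ikzf5, 8.27 ± 2.12 for Ikzf4, 3.59 ± 0.974 for Ikzf3 and 0.767 ± 0.478 for Ikzf2. The ranges of Ikzf5 and Ikzf4 overlapped over the WT libraries, and no other neighbours in this order did. Ikzf1 made up 93.2% ± 1.01 of the summed family level, Ikzf5 2.81% ± 0.0629, Ikzf4 2.63% ± 0.889, Ikzf3 1.13% ± 0.329 and Ikzf2 0.233% ± 0.131 (SD, n = 3 each). Most exon bases of Ikzf5 are shared with Pstk on the other strand, so its level, place and share are less certain. Eos RNA was a minor part of the family's total in WT cells, where the level of Ikzf1 was 25.2, 44.0 and 44.8 times that of Ikzf4 in replicates 1 to 3.

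Corepressor genes spanned a similarly wide range. Chd4, the ATPase of NuRD, had a WT level per length of 415 ± 14.8, Ctbp1 210 ± 6.06, Hdac2, a deacetylase of NuRD and SIN3, 92.0 ± 3.83, and Sin3a, the scaffold of the SIN3 complex, 59.2 ± 2.84 (SD, n = 3 each). Ctbp2, the paralog of Ctbp1, was at 0.834 ± 0.0433, so that Ctbp1 exceeded it 253-fold ± 20.5 (SD, n = 3). Chd4, Ikzf1 and Ctbp1 stood at the 97.7th, 96.4th and 94.4th percentile of all genes by WT level per length, Ikzf4 at the 40.9th, Ctbp2 at the 12.2nd and Ikzf2 at the 11.3rd. Over all 10 genes the WT order was Chd4, Ikzf1, Ctbp1, Hdac2, Sin3a, Ikzf5, Ikzf4, Ikzf3, Ctbp2 and Ikzf2. Only Ikzf5 with Ikzf4 and Ctbp2 with Ikzf2 overlapped as neighbours. With the longest coding length as the divisor, Chd4 (185) fell behind Ikzf1 (345) and Ctbp1 (228), and Ikzf2 (1.79) passed Ctbp2 (0.561); the order of the 5 Ikaros genes was the same under each of the 3 lengths used. The order of Ikzf5 and Ikzf4 rested on single libraries: Ikzf4 (8.76) was above Ikzf5 (8.69) without WT replicate 2, and likewise (9.002 and 8.824) without WT replicate 3.

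**Figure D2:**
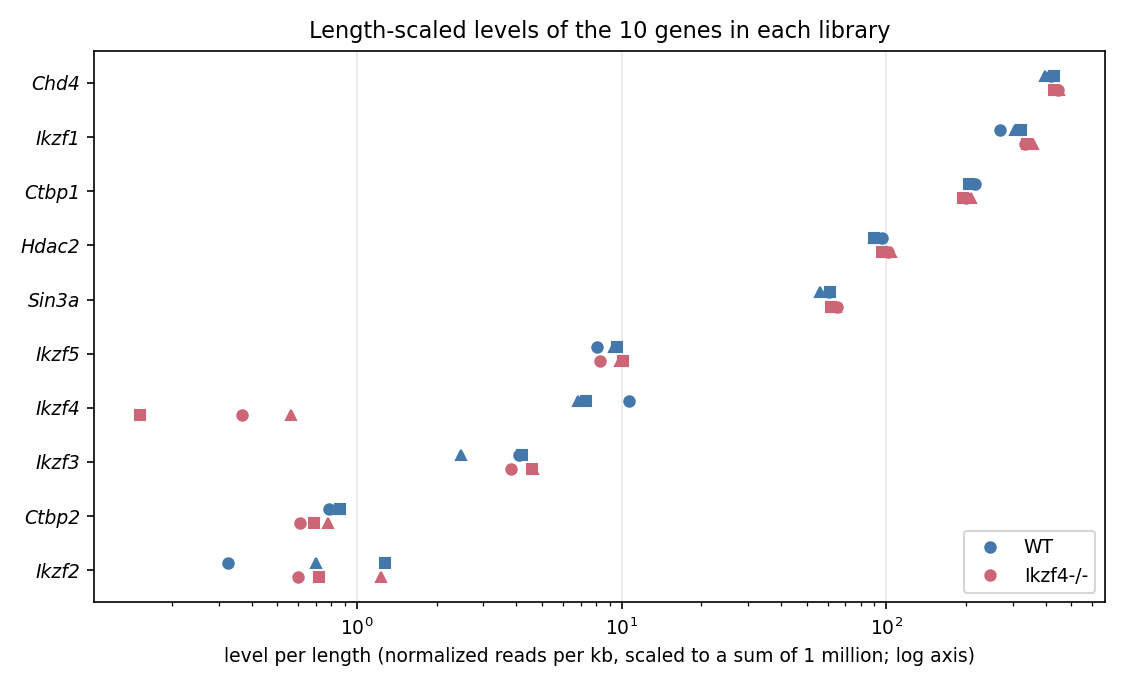
Level per length (log axis) of the 10 genes, ordered by WT mean, in each WT (blue) and Ikzf4-/- (red) library; circle, square and triangle are replicates 1, 2 and 3. Chd4, Ikzf1 and Ctbp1 lie at 195 or more in all libraries, Ctbp2 and Ikzf2 at 1.27 or less, and only Ikzf4 separates widely by genotype.

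The comparison of genotypes asked whether another factor was higher where Eos was lost. None of the other 4 Ikaros genes passed the test. Of the 10 members, limma called 1, Ikzf4, at an adjusted p under 0.05, where 1.77% of all 14864 tested genes were called, 0.572% higher and 1.2% lower in Ikzf4-/- cells. WT and Ikzf4-/- libraries had separate ranges for 4 members, Ikzf1 and Chd4 (higher) and Ikzf4 and Ctbp2 (lower), against 23.1% of all tested genes, 11% higher and 12.2% lower. Among the 9 other members, 1 (Ikzf1) had an unadjusted p under 0.05, as did 18.1% of all tested genes. The authors' deposited table likewise had 1 of the 10 members, Ikzf4, at an adjusted p under 0.05, where 6.34% of its genes with an adjusted p were. Taken without its sign, the log2 fold change had a median of 0.10 over the 9 and of 0.11 over all tested genes.

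Ikzf1 (ENSMUSG00000018654, chromosome 11, 11685003 to 11772926, plus strand) had a normalized read count of 18360, 21176 and 20848 in WT replicates 1 to 3. The Ikzf4-/- replicates were at 22043, 22587 and 23349. All 3 mutant values lay above all 3 WT values, by a narrow margin, and WT replicate 1 was the lowest library. The fitted change was 12.8%, with a 95% confidence interval of 3.34% to 23.1% that is not adjusted for the number of genes (log2 fold change 0.17, SE 0.06, limma adjusted p = 0.142). The authors' deposited table gave a log2 fold change of 0.17 with an adjusted p of 0.0727. Without WT replicate 1 the log2 fold change was 0.11 (limma adjusted p = 0.313).

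Ikzf3, the gene of Aiolos (ENSMUSG00000018168, chromosome 11, 98464902 to 98546031, minus strand), had counts of 422, 421 and 255 in WT replicates, and of 382, 460 and 454 in Ikzf4-/- replicates. The groups overlapped, and the low value of WT replicate 3 set most of the fitted difference. The change was 20.7%, with an interval from -8.14% to 58.7% (limma adjusted p = 0.468), and without WT replicate 3 the log2 fold change went from 0.27 to 0.03.

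Ikzf2, the gene of Helios (ENSMUSG00000025997, chromosome 1, 69531214 to 69687245, minus strand), was the least certain. Its counts were 44.7, 169 and 96.1 in WT replicates and 79.7, 96.3 and 162 in Ikzf4-/- replicates, so that the WT libraries spanned the mutant ones. Its coefficient of variation was 60.5% in WT and 38.5% in Ikzf4-/- cells, against 9.55% and 9.51% from counting reads alone. The interval of the change ran from -36.8% to 125% (limma adjusted p = 0.802), and the log2 fold change of 0.25 became -0.24 without WT replicate 1 and -0.04 without Ikzf4-/- replicate 3.

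Because Helios and Eos are known from regulatory T cells, markers of these cells were summed in each library. Of the 7 markers, 0 were called higher and 1, Tnfrsf18, lower in Ikzf4-/- cells, beside 0.572% and 1.2% of all tested genes. The genotypes did not overlap for 2 of the 7, Il2ra and Tnfrsf18, both lower, beside 23.1% of all tested genes. Summed over the 7 markers, the count was 54561 to 74367 in WT and 46343 to 49608 in Ikzf4-/- libraries. Foxp3, which defines the lineage, was at 36.2, 97.0 and 42.7 in WT and 43.4, 31.4 and 48.2 in Ikzf4-/- libraries, and the groups overlapped. Most of the sum was Il2ra, which T cells also raise on activation, at 32098 to 49294 in WT and 25432 to 29286 in Ikzf4-/- libraries (limma adjusted p = 0.0869). Besides Foxp3, the genotypes overlapped for Ctla4, Nrp1, Lrrc32 and Gpr83, and the fitted log2 fold change was 0.04 for Nrp1 and 0.38 for Gpr83, neither called. The markers differed in library order. Over the WT libraries Foxp3 had the same order as Ikzf2, highest in replicate 2 and lowest in replicate 1. Both were also highest in Ikzf4-/- replicate 3, with Ikzf4-/- replicates 1 and 2 in opposite order. Nrp1 was highest in WT replicate 2 as well, whereas Il2ra, Ctla4 and Tnfrsf18 were highest in WT replicate 1. Lrrc32 (278, 255 and 293 in WT replicates 1 to 3) and Gpr83 (121, 136 and 173) were highest in WT replicate 3. Lrrc32 was lowest in WT replicate 2, where Ikzf2 and Foxp3 were highest. In RNA from whole cultures, a different number of cells of a type and a different amount of RNA in each cell cannot be told apart, and the part of such cells in the Ikzf2 values was not tested.

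Ikzf5, the gene of Pegasus (ENSMUSG00000040167, chromosome 7, 131388652 to 131410521, minus strand), was at 543, 626 and 631 in WT and 539, 664 and 635 in Ikzf4-/- libraries. Replicate 1 was the lowest of each genotype, and the groups overlapped almost entirely. The change was 1.91%, with an interval from -12.8% to 19.1% (limma adjusted p = 0.922). Annotated exons of Ikzf5 share 4652 of 5721 merged bases with Pstk on the other strand, and whether counting used the strand is not given in the sources used here, so reads of the 2 genes may not be told apart. Pstk itself was at 554 ± 35.3 in WT and 583 ± 38.3 in Ikzf4-/- cells (SD, n = 3 each).

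**Figure D3:**
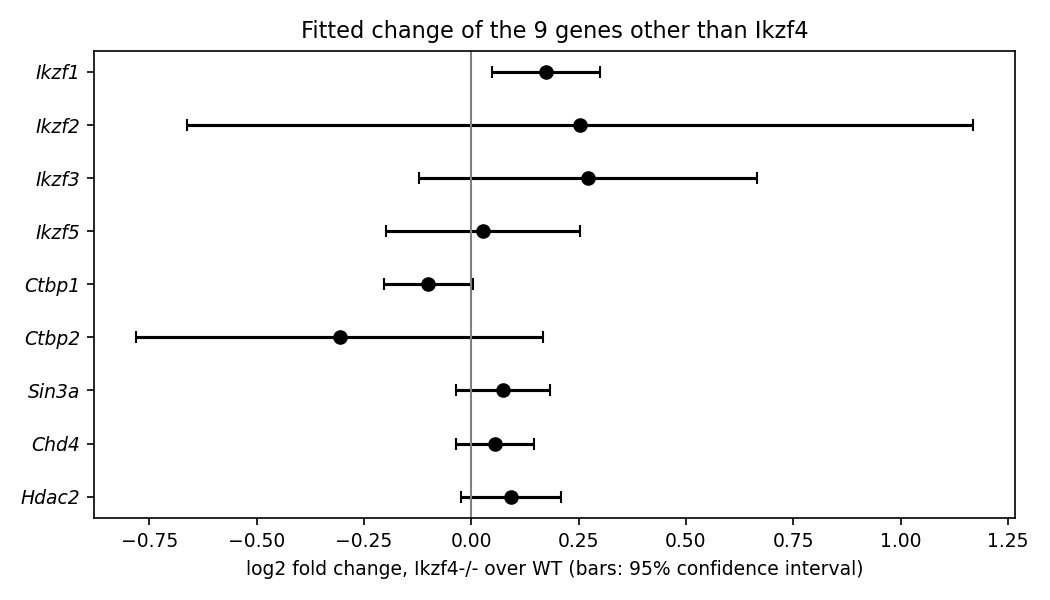
Log2 fold change (Ikzf4-/- over WT, x axis) with 95% confidence intervals for the 9 genes other than Ikzf4. The interval of Ikzf1, 0.05 to 0.30, is the only one that does not include 0, and Ikzf2 has the widest, -0.66 to 1.17.

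These intervals were set beside the amount of Eos RNA that was lost. The level per length of Ikzf4 was 7.91 lower in Ikzf4-/- than in WT cells. A gain of the same size would be an increase of 88.0% for Ikzf5, 221% for Ikzf3 and 1031% for Ikzf2, and the upper bounds of their measured changes were 19.1%, 58.7% and 125%. For Ikzf1 it would be an increase of 2.65%, which lies below the interval of its measured change, 3.34% to 23.1%, though Ikzf1 was not called. It is also smaller than the coefficient of variation of Ikzf1 among WT libraries on the scale of the level per length, 8.83%. The gains are on that scale and the intervals on that of the fitted normalized counts, so they are not strictly alike. Per length, Ikzf1 was at 299 ± 26.4 in WT and 344 ± 12.8 in Ikzf4-/- cells (SD, n = 3 each). Whether RNA of another factor can stand in for Eos was not tested. The summed level per length of the 4 other genes was 282, 336 and 318 in WT and 347, 356 and 374 in Ikzf4-/- libraries. The sums did not overlap, where 23.1% of all tested single genes had separate ranges, 11% higher in Ikzf4-/- cells. Nearly all of the sum is Ikzf1, so it restates the difference of Ikzf1, which was not called. With all 5 genes counted, the sum was 320 ± 25.6 in WT and 359 ± 14.3 in Ikzf4-/- cells (SD, n = 3 each).

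Of the 5 corepressor genes, 0 were called in either direction. Chd4 (ENSMUSG00000063870, chromosome 6, 125095981 to 125130591, plus strand) was the most precise member. Its counts were 39492, 39167 and 37835 in WT and 40821, 39746 and 40487 in Ikzf4-/- libraries. The groups did not overlap, but the difference was 3.93%, with an interval from -2.44% to 10.7% (limma adjusted p = 0.528). Hdac2 (ENSMUSG00000019777, chromosome 10, 36974544 to 37001889, plus strand) was at 4807 ± 260 and 5124 ± 171 (SD, n = 3 each), with an interval from -1.58% to 15.6% (limma adjusted p = 0.386). Sin3a (ENSMUSG00000042557, chromosome 9, 57072040 to 57128366, plus strand) was at 3722 ± 147 and 3915 ± 103 (SD, n = 3 each), with an interval from -2.44% to 13.5% (limma adjusted p = 0.478).

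Ctbp1 and Ctbp2 encode corepressors that bind a short peptide motif in their partners, and Eos was described with CtBP1 in regulatory T cells. Ctbp1 (ENSMUSG00000037373, chromosome 5, 33247723 to 33274994, minus strand) was at 11415, 10434 and 11111 in WT and 10213, 10020 and 10506 in Ikzf4-/- libraries. The groups overlapped at WT replicate 2, and the change was -6.69%, with an interval from -13.1% to 0.251% (limma adjusted p = 0.293). Ctbp2 (ENSMUSG00000030970, chromosome 7, 132987563 to 133124354, minus strand) was at 57.5, 61.1 and 63.1 in WT and 43.4, 49.2 and 54.2 in Ikzf4-/- libraries. All mutant values were below all WT values, by an amount close to the counting error, which alone gives a coefficient of variation of 12.7% in WT and 14.4% in Ikzf4-/- cells. The change was -19.1%, with an interval from -41.8% to 12.3% (limma adjusted p = 0.499), so a moderate difference was not detectable at this depth.

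Other genes of the complexes through which Ikaros factors act were taken as lists. They held 13 other genes of NuRD, 14 of the SIN3 and NCoR complexes and 13 of CtBP and CoREST. The BAF remodelling complex gave 14 and Polycomb repressive complex PRC2 gave 7. A further list, of no such complex, held 5 genes of the cereblon (Crbn) ubiquitin ligase. In human cells this ligase marks Ikaros and Aiolos for degradation when drugs such as lenalidomide bind it. All 66 passed the filter on low values. limma called 0 of them, beside 1.77% of all tested genes. The unadjusted p was under 0.05 for 13 of the 66 (19.7%), beside 18.1% of all tested genes: 2 of NuRD, 3 of SIN3, 2 of CtBP and CoREST, 2 of BAF, 2 of PRC2 and 2 of the cereblon ligase. Their median log2 fold change was -0.01, that of all tested genes 0.00. The genotypes did not overlap for 15 of the 66 (22.7%), 8 higher and 7 lower, beside the 23.1% of all genes.

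Of the 66, 3 had an adjusted p under 0.05 in the authors' deposited table (4.55%, beside 6.34%): Sap30, Smarcd2 and Smarca2. Sap30, a subunit of the SIN3 complex, was at 1511, 1185 and 1480 in WT and 845, 1147 and 1074 in Ikzf4-/- libraries. The groups did not overlap, though WT replicate 2 lay near Ikzf4-/- replicate 2. Its adjusted p was 0.0862 by limma, for a log2 fold change of -0.45, and 0.00517 in the authors' deposited table. Smarcd2, a BAF subunit, was at 5774 ± 150 in WT and 5050 ± 20.9 in Ikzf4-/- cells (SD, n = 3 each), and limma gave a log2 fold change of -0.19 with an adjusted p of 0.0526. Its adjusted p was 0.0114 in the authors' deposited table, which is 1 of the 5 of 15 other settings in which it passed the threshold. Smarca2, an ATPase of BAF, was at 1537 ± 107 and 1842 ± 94.7 (SD, n = 3 each), and limma gave a log2 fold change of 0.26 with an adjusted p of 0.0802, beside 0.0239 in the authors' deposited table.

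Among the paralogs that can take the place of a corepressor member, none was called. Hdac1 exceeded Hdac2 4.34-fold ± 0.278 per length in WT and 4.04-fold ± 0.142 in Ikzf4-/- cells, and Chd4 exceeded Chd3 3.74-fold ± 0.297 and 3.49-fold ± 0.192 (SD, n = 3 each). Sin3a and Sin3b were close to each other, with a ratio of 1.14 ± 0.0910 in WT and 1.22 ± 0.0423 in Ikzf4-/- cells (SD, n = 3 each). Chd3 was at 10951 ± 635 and 12196 ± 531 counts (SD, n = 3 each), with an interval of the change from 2.66% to 20.9% (limma adjusted p = 0.157). Rcor2, a CoREST scaffold, had the most negative log2 fold change of the 66, -1.09, with widely spread counts of 162, 75.5 and 82.5 in WT and 34.3, 82.7 and 35.2 in Ikzf4-/- libraries (limma adjusted p = 0.158). Crbn was at 1989 ± 58.1 and 2224 ± 88.0 (SD, n = 3 each; limma adjusted p = 0.156).

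**Figure D4:**
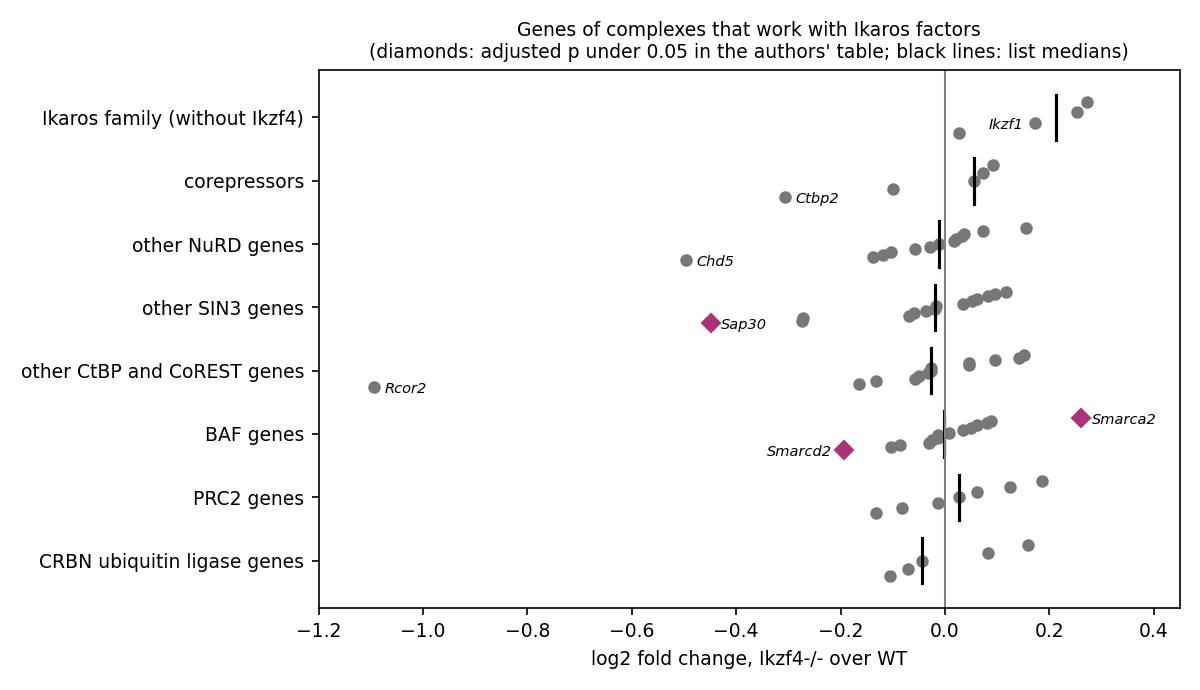
Log2 fold change (Ikzf4-/- over WT, x axis) of single genes by list; diamonds had an adjusted p under 0.05 in the authors' table, and black lines are list medians. Most points lie close to 0, with Rcor2 at -1.09 and Chd5 at -0.50 as the lowest.

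Genes whose profile was most like that of Ikzf4 were ranked by the root mean square distance between log2(value + 1) profiles over the 6 libraries, each minus its own WT mean, among 11599 genes with a mean of at least 50. Suox, the gene of sulfite oxidase, which lies near Ikzf4 on chromosome 10, was nearest at a distance of 1.36, followed by Cd24a (1.89), Itga7 (1.91), Tnfrsf8 (2.08) and Pygl (2.17), against a median of 3.33 over all genes ranked. Suox was at 792, 776 and 784 in WT and 103, 108 and 97.4 in Ikzf4-/- libraries, and unlike Ikzf4 it barely varied within WT. Cd24a, in contrast, stood at 1045 in WT replicate 1 and at 150.1 and 132 in the other 2, and was not called (limma adjusted p = 0.0913). The measure is a description, since genes with lower values in Ikzf4-/- libraries are near Ikzf4 by construction.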

How the data were processed

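RNA was sequenced from 3 WT and 3 Ikzf4-/- cultures, grouped and numbered by the labels. Per the submitters' processing notes, Trimmomatic 0.36, STAR 2.5.2b and DESeq2 were used with GRCm38 (mm10); the counting tool, its use of strand and the annotation are not given in the sources used here. The sample columns deposited by the authors hold a signal that was read as normalized counts, since 100% of values were whole multiples (within 0.01) of 1 step per library. The authors' log2 fold changes, p-values and adjusted p-values stand in the same deposited table. No count test was run, because the unit check applied beforehand did not accept 2 Ikzf4-/- libraries (replicates 1 and 3) as recovered reads. Their steps were near 1 (1.009 and 1.005), though their values too were whole multiples of the step.

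After taking log2(value + 1), genes averaging 10 or more were kept (14864, with 4 left out), and genotype was fitted across all genes with limma 3.58.1 (R 4.3.3, variance trend). P-values are two-sided and Benjamini-Hochberg adjusted over all genes tested; fold changes of low genes are understated on this scale. The fit was tested on simulated data with larger changes than those of the uncalled members. That test does not show whether small changes would be called. Merged exon lengths, for 14836 genes, and positions came from GENCODE M21 (GRCm38), matched by Ensembl identifier. Named genes are the 10 members, list genes that were called or complete a complex, markers, and the 5 genes most like Ikzf4; Sap30, Smarca2, Rcor2, Chd5, Crbn, Ddb1, Cul4a and Rbx1 were singled out after their values were seen, as was Smarcd2. Alternatives were other scalings, filters and pseudocounts, array weights, a replicate block, other lengths and leaving out each library. The members and lists were chosen with earlier results of these data known.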

Additional observations from a re-analysis of the deposited data

How the results depend on the processing

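Ikzf4 was called in all 15 other settings run (log2 fold change -5.03 to -4.15), and each of the 9 other members in 0 of 15. The signs of 2 of them, neither called, turned: Ikzf2 gave -0.13 with array weights and -0.24 to 0.70 over the fits without 1 library, and Ikzf5 -0.043 to 0.12 over those fits. The adjusted p of Ikzf1 ran from 0.0727 to 0.352 over its settings. The background moved more: 263 genes were called (85 higher, 178 lower), 20 to 523 without 1 library (6 to 189 higher, 14 to 334 lower), fewest without Ikzf4-/- replicate 3 (20), then 48 without Ikzf4-/- replicate 1, 75 without WT replicate 2, 112 without Ikzf4-/- replicate 2 and 523 without WT replicate 3. Array weights gave 482 (167 higher, 315 lower) and the authors' deposited comparison gave 815 (315 higher, 500 lower). Higher genes were 32.3% of those called, 42.8% with equal library totals and 18.75% without Ikzf4-/- replicate 1. The cause was not tested, beyond the fewer libraries of some fits.

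The replicate block gave 754 called genes (296 higher, 458 lower) and changed no call of a member; of the complex genes it added Smarca2 (adjusted p = 0.0307) and Smarcd2 (0.0394). Deviations of same-numbered libraries correlated at 0.145, 0.0122 and 0.142, and those of differently numbered libraries at -0.163 to 0.0491. The values for replicates 1 and 3 were thus the highest, whereas WT replicate 2 correlated best with Ikzf4-/- replicate 3. The labels name no pairs, so the main fit used none, and these values do not settle whether equal numbers mark pairs.

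The WT share of the summed Ikaros level was, with the longest transcript, 92.0% for Ikzf1, 1.89% for Ikzf3 and 3.19% for Ikzf5, and with the longest coding length 92.1% for Ikzf1, 0.465% for Ikzf2, 1.78% for Ikzf3 and 3.51% for Ikzf5. By construction, these follow the divisor. Without 1 WT library the share of Ikzf4 was 2.11% to 2.89%. Counting error alone was largest for Ikzf4 in Ikzf4-/- cells (coefficient of variation 20.3%), then for Ctbp2 there (14.4%); the spread of Ikzf2 was well above its counting error.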

Other observations

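The balance between Ikzf1 and Ctbp1 RNA was compared after the values were seen and is given with no test. The ratio of their levels per length ran over WT libraries from 1.25 through 1.45 to 1.57, and over Ikzf4-/- libraries from 1.67 through 1.72 to 1.75. The groups did not overlap, but Ikzf1 alone already separated upward, and 23.1% of all tested single genes had separate ranges. The share of gene pairs whose ratio separates was not computed. Against Chd4, the Ikaros level did not separate: the ratio of Chd4 to Ikzf1 was 1.55, 1.33 and 1.31 in WT and 1.33, 1.27 and 1.25 in Ikzf4-/- libraries. With Hdac2 as the divisor the Ikzf1 ratio was 3.26 ± 0.412 in WT and 3.43 ± 0.132 in Ikzf4-/- cells (SD, n = 3 each). With Sin3a as the divisor it was 4.44, 5.27 and 5.45 in WT and 5.12, 5.53 and 5.54 in Ikzf4-/- libraries. The genotypes overlapped for both of these ratios.

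Genes of the cereblon ubiquitin ligase, singled out of the 6 complex lists after their values were seen, had 4 of 5 members whose genotypes did not overlap, beside 15 of 66 over the 6 lists (22.7%) and 23.1% of all tested genes. Of the 4, Crbn was the 1 higher and Ddb1, Cul4a and Rbx1 were the 3 lower. None was called by limma, and the median log2 fold change of the 5 was -0.04.

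Pegasus RNA was at about the level of Eos in WT cells: the ratio of Ikzf5 to Ikzf4 per length was 0.753, 1.31 and 1.37 in the 3 libraries, below 1 in WT replicate 1 alone. Because Ikzf5 shares most exon bases with Pstk, its part of this ratio may not be told apart from Pstk reads.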
